A study of Bos taurus with 12 samples.

Results

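The 10 probes of 8 genes of fatty acid sensing and use were followed in bovine corpus luteum, which the ovary forms after ovulation and which secretes progesterone. The genes were the fatty acid receptors PPARA, PPARD and PPARG, their partner RXRA, and the lipid genes ANGPTL4, FABP5, HADH and SLC25A20. Every probe whose annotation named one of these genes was taken and kept apart with its row on the array, which gave 10 of 15208 probes and 8 of 6714 gene symbols. PPARD and RXRA had 2 probes each, called here by their array rows, and the other 6 genes had 1 each. HADH was listed under its older symbol HADHSC and was found through its gene number, as was the RXRA probe in row 100. The related HADHA, HADHB and HADH2 are other genes.

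The tissue came from Japanese-Black cows, 4 animals in each of 3 groups, collected 10 to 30 min after exsanguination. NP15 cows were on day 15 of the estrous cycle and not pregnant, P15 cows on day 15 of gestation and P18 cows on day 18, with insemination as day 1. No treatment or genotype is given for any group. Each sample was hybridised from 400 ng of total RNA to a 1-colour array, and its value for a probe is given as log2 of the processed signal over the 75th percentile of that array, so that 0 stands for a signal at the 75th percentile. In bulk tissue, fewer cells of a type and less RNA per cell cannot be told apart.

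PPARs are nuclear receptors that bind fatty acids and their derivatives. Each pairs with an RXR, the receptor for 9-cis retinoic acid, and the pair binds DNA response elements near genes of fatty acid uptake, storage and oxidation. Luteal cells hold lipid droplets and use cholesterol to make progesterone, and the gland has to be kept beyond its cyclic lifespan when a cow is pregnant. ANGPTL4, a secreted inhibitor of lipoprotein lipase, is a widely used PPAR target. FABP5 carries fatty acids in the cytosol and to PPARD, SLC25A20 carries acylcarnitines into mitochondria, and HADH catalyses the third step of mitochondrial beta-oxidation.

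The sequences of the PPARD and RXRA probes are shown because the 2 probes of PPARD gave different values. They are written 5′ to 3′ as the array files give them, with the longest run of only A and T in capitals.
PPARD row 1, bases 23 to 52 of 60: aatgggAATTAAATATTTAAgaattgattt
PPARD row 141: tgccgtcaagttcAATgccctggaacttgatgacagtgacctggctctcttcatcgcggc
RXRA row 8, bases 22 to 51 of 60: acggagAAAAAgaggagaaacaagcaaaac
RXRA row 100: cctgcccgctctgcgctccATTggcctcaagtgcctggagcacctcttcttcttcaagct
The PPARD row 1 probe has a GC content of 25%, and 0.901% of all probes have a lower one. Its A/T run of 14 bases is matched or exceeded in 1.5% of probes. That run and its flanks hold the letters ATTAAA or AATAAA, searched on the strand given, which 14.9% of all probes hold. The whole probe has a stop codon in all 3 forward frames, as 20.3% of probes do. The PPARD row 141 probe has a GC content of 55.0%. The RXRA probes have 41.7% in row 8 and 60% in row 100, against a median of 43.3% over all probes. No member shares its sequence with another probe. Which part of each transcript the probes read was not determined here.

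Array layout, detection and cell type markers bear on the members. NP15 arrays lay in the first row of slide 1, P15 arrays in its second row and P18 arrays on slide 2, so a group's place on the slides and its biology cannot be told apart in any comparison. The negative controls had a mean signal of 62.8 to 68.8 on slide 1 and 108 to 127 on slide 2, and 75.3% to 85.6% and 67.5% to 72.6% of probes were well above background there. NP15 replicate 4 stood apart from its group, where 4.08% of probes differed by over 2 log2 units from the average of its other arrays; on the remaining 11 arrays that share was 0.317% to 1.29%. Of the luteal steroidogenic markers on the array, 10 of 10 probes were well above background on all 12 arrays. Their summed level ranged over 483 to 628 in NP15, over 387 to 476 in P15 and over 369 to 445 in P18. Of these 10 probes, 1 was called lower in P15 and 4 lower in P18 than in NP15, against 0.579% and 18.7% of all probes. The marker called in P15 was HSD3B1, in the last row of the array, at -1.47 (limma adjusted p = 0.000890). The median change of its row was -0.72. STAR, with the same NP15 mean of 7.56, was at 0.05 in that comparison (adjusted p = 0.950). Of 7 adipocyte markers, 4 were tested and 0 called by limma in any comparison, ADIPOQ, CIDEC and LEP were too dim to test, and the sum ranged over 0.289 to 0.641 in NP15, over 0.376 to 0.679 in P15 and over 0.604 to 1.13 in P18. Myeloid markers summed to 6.09 to 10.7, 8.40 to 22.3 and 14.5 to 38.3 in that order of groups. Of their 10 probes, 2 were called higher in P18 than in NP15, against 11.2% of all probes. C1QB, at 1.51 in that comparison, had the highest mean of these probes, and C1QA was at -0.85 (limma adjusted p = 0.0617). Markers of fibroblasts, pericytes and smooth muscle had 4 of 9 probes called lower in P18 than in NP15 and than in P15, against 18.7% and 15.6% of all probes. Their sums of 65.2 to 82.6 in P18 did not overlap those of 88.4 to 99.1 in NP15 and 88.2 to 101 in P15. The part of these markers in the members' values was not tested.

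PPARD, the receptor named in the title of the series, had a higher signal in both pregnant groups than in NP15 on its probe in row 1. Group and place on the slides cannot be told apart here, and the other PPARD probe, in row 141, did not show this. The 4 NP15 arrays were at -7.12, -7.57, -7.71 and -6.34, the 4 P15 arrays at -4.72, -4.85, -4.74 and -4.67, and the 4 P18 arrays at -3.75, -2.74, -3.59 and -3.79. The 3 groups did not overlap, NP15 being lowest and P18 highest, and the P15 arrays lay closest together. The group means were -7.18 ± 0.62 (SD, n = 4), -4.74 ± 0.07 and -3.47 ± 0.49. The rise was 5.43-fold from NP15 to P15 (log2 change 2.44, 95% interval 1.78 to 3.10, limma adjusted p = 0.00229) and 13.1-fold from NP15 to P18 (3.71, 3.05 to 4.37, adjusted p = 2.32e-05). From P15 to P18 it was 2.42-fold (1.27, 0.61 to 1.93, adjusted p = 0.00900). Leaving out NP15 replicate 4, the highest of the NP15 arrays, the changes from NP15 were 2.72 and 4.00.

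This was 1 of 10 member probes called in each comparison, and the only one whose groups did not overlap in any of them. Among all 12605 probes tested, 0.976% were called between P15 and NP15, 29.9% between P18 and NP15 and 29.0% between P18 and P15. Groups that did not overlap were found in 6.54%, 30.9% and 35.2% of probes. The 1 in 10 of the members therefore lay below the share of all probes in both comparisons with P18.

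The PPARD row 1 spot was dim but measured. It was well above background on all 12 arrays, and its background-corrected signal was between 16.1 and 35.5 in NP15, between 101 and 138 in P15 and between 231 and 532 in P18. Before correction the mean pixel signal was 82.4 to 107, 177 to 214 and 366 to 644, each above the mean of the negative controls of its slide. The NP15 values lay close to the lowest signal well above background on those arrays, which was between -8.09 and -7.34 on the log2 scale. Normexp background correction with an offset of 50 gave smaller changes, 1.03 from NP15 to P15 (adjusted p = 0.0248), 1.97 from NP15 to P18 (adjusted p = 5.25e-05) and 0.94 from P15 to P18 (adjusted p = 0.00287).

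The spot lies in row 1, at the edge of the array, where changes between P15 and NP15 were shifted upward. The median change was 0.46 over 61 other probes of row 1 and -0.06 over all probes. Of those 61 probes, 14 were called higher in P15 than in NP15, which is 23.0% against 0.397% of all probes tested. All 50 probes called higher in that comparison, the PPARD probe among them, lay in the first 24 rows of the array. The other 49 were among 1533 probes there, against 0 of 9469 in the middle rows and 0 of 1602 in the last 24 rows. Row 1 was also shifted upward between P18 and NP15, where its other 61 probes had a median change of 0.305. Of them, 25 were called higher in P18 than in NP15, which is 41.0% against 11.2% of all probes. Between P18 and P15 their median change was -0.12, and 5 were called higher, 8.20% against 13.5% of all probes. Of 176 probes in rows 1 to 3, the change of the PPARD probe exceeded 173 in P15 vs NP15, 176 in P18 vs NP15 and 171 in P18 vs P15. Among 135 probes with a GC content of 25% or less, 1 changed at least as much from NP15 to P15, 0 from NP15 to P18 and 8 from P15 to P18. In that order of comparisons, 3.704%, 29.63% and 28.15% of these 135 were called higher, against 0.397%, 11.2% and 13.5% of all probes. Among 936 probes whose NP15 mean was within 0.5 log2 units of this one, 1 changed at least as much from NP15 to P15 and 0 from NP15 to P18, but 180 did from P15 to P18, where 26.7% of them were called higher. From NP15 to P18, 20.2% of these 936 were called higher, against 11.2% of all probes. After subtraction of the local row median the 3 changes of the PPARD probe were 2.02 (adjusted p = 0.00902), 3.42 (2.68e-05) and 1.40 (0.00369), so that each was still called. On the 8 arrays of slide 1 alone the change from NP15 to P15 is by construction the same 2.44, and limma's adjusted p was 0.00921. NP15 and P15 lay in different rows of that slide, so this fit does not address their place on it.

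**Figure D1:**
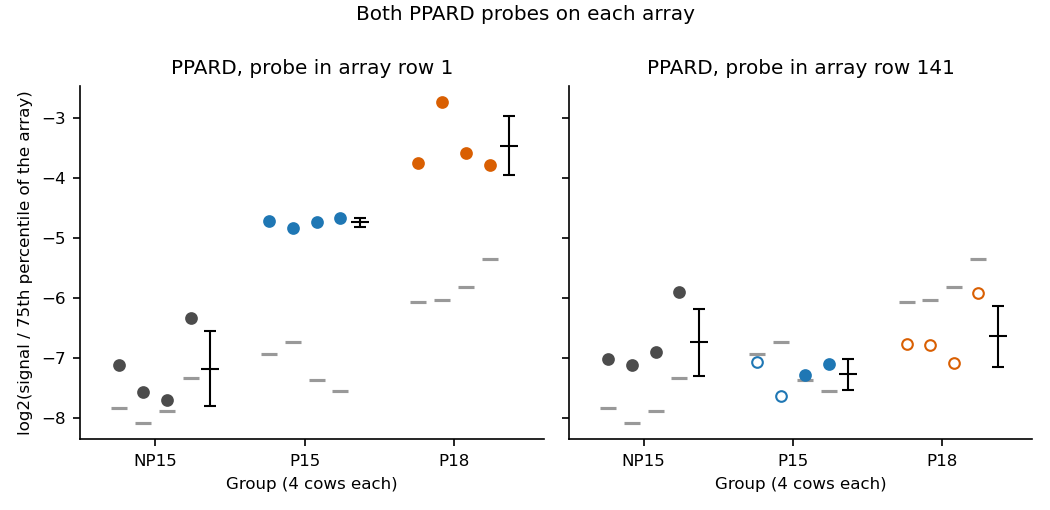
Level of both PPARD probes on each array, as log2 of signal over the 75th percentile of the array; filled points are well above background, open points are not, black marks show mean ± SD (n = 4) and grey ticks the lowest signal well above background on that array. In the left panel the groups do not overlap (means -7.18, -4.74 and -3.47); in the right panel all 4 P18 points lie below the grey ticks.

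The second PPARD probe, in row 141, did not show this rise. Its NP15 arrays were at -7.03, -7.12, -6.91 and -5.91, its P15 arrays at -7.07, -7.64, -7.28 and -7.11, and its P18 arrays at -6.78, -6.80, -7.09 and -5.92. The groups overlapped throughout, and NP15 replicate 4 was the highest of the NP15 arrays here as on the other probe. It was well above background on 4 NP15, 2 P15 and 0 P18 arrays, so the P18 values bound the level from above only. The change from NP15 to P15 was -0.53 (95% interval -1.20 to 0.13, adjusted p = 0.698). The measured means of NP15 and P18 were -6.74 and -6.65 (log2 change 0.10, adjusted p = 0.836), with no fold given because P18 was not well above background. From P15 to P18 the measured difference was 0.63 (adjusted p = 0.144), which passed with normexp at 0.48 (adjusted p = 0.0463), with array weights at 0.71 (adjusted p = 0.0377) and with the replicate number as a block at 0.63 (adjusted p = 0.0436).

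The change from NP15 to P15 was 2.97 log2 units larger on the row 1 probe than on the row 141 probe. The difference between the 2 probes within an array was 2.53 ± 0.19 (SD, n = 4) in P15 and -0.44 ± 0.29 in NP15, with no overlap. A two-sided exact permutation test of that difference gave p = 0.0286, the smallest value that 4 against 4 arrays allow. Adjusted over the 4 such tests of PPARD and RXRA it was 0.114, which did not pass. With normexp the difference was 1.15, and after subtraction of the local row median it was 2.46 (exact permutation p = 0.0286, adjusted 0.0571). The row 141 probe was well above background on 2 of 4 P15 arrays, which limits these differences and their tests. Averaged over both probes, PPARD changed by 0.95 from NP15 to P15 (adjusted p = 0.157), 1.91 from NP15 to P18 (0.000378) and 0.95 from P15 to P18 (0.0165), so that the P15 call was lost. These averages take in the row 141 values, which were well above background on 2 P15 and 0 P18 arrays. Over the 12 arrays the 2 probes correlated at r = 0.059, a description of arrays that share their groups.

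PPARA, the receptor best known for driving fatty acid oxidation in liver, was near the limit of detection. Its NP15 values were -7.50, -6.34, -7.66 and -7.04, its P15 values -7.77, -7.39, -8.08 and -7.26, and its P18 values -7.55, -7.19, -7.10 and -6.96. The groups overlapped, with NP15 replicate 2 the highest array. It was well above background on 4 NP15, 1 P15 and 0 P18 arrays, so the P18 values bound the level from above only. The change from NP15 to P15 was -0.49 (95% interval -1.11 to 0.13, adjusted p = 0.704), and the measured means of P18 and NP15, -7.20 and -7.14, differed by -0.06 (adjusted p = 0.892). No order is given between P18 and P15, whose test did not pass (adjusted p = 0.289).

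PPARG, the receptor that governs fat cell formation and lipid storage, averaged -3.08 ± 0.30 (SD, n = 4) over NP15 cows, -2.75 ± 0.22 over P15 cows and -2.63 ± 0.39 over P18 cows. The arrays were at -2.93, -2.86, -3.00 and -3.52 in NP15, at -2.66, -3.06, -2.53 and -2.75 in P15 and at -2.56, -2.63, -3.14 and -2.18 in P18. In both pregnant groups 3 of 4 arrays lay above all NP15 arrays, and 1 array each overlapped. Neither difference passed the test: the change was 0.33 in P15 (95% interval -0.14 to 0.80, adjusted p = 0.760) and 0.45 in P18 (-0.02 to 0.92, adjusted p = 0.137), and P18 and P15 differed by 0.12 (adjusted p = 0.712). The P18 change passed under other scalings, at 0.66 with quantile normalization (adjusted p = 0.0274), 0.62 with median centring (0.0347) and 0.74 with cyclic loess (0.0235), and without P18 replicate 3 at 0.62 (0.0425). Median centring also moved the median change of all probes between P18 and NP15 from -0.06 to 0.12. Without NP15 replicate 4, the lowest array for PPARG, the P18 change was 0.30 (adjusted p = 0.282) and the P15 change 0.18 (0.882).

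RXRA, the shared partner, was not called on either probe in the main fit. On the row 8 probe the arrays were at -1.95, -1.60, -1.79 and -1.61 in NP15, at -1.93, -2.04, -1.94 and -2.04 in P15 and at -1.85, -1.78, -2.08 and -1.84 in P18. The P15 arrays lay within or below the NP15 range, with a change of -0.25 (95% interval -0.49 to -0.01, adjusted p = 0.535). The 321 probes within 2 rows had a median change of 0.08 in that comparison. Under other processing settings the change of the row 8 probe ran from -0.35 to -0.13, and 0 of these were called. P18 differed from NP15 by -0.15 (adjusted p = 0.326). On the row 100 probe the arrays were at -2.76, -2.82, -2.49 and -2.78 in NP15, at -2.52, -2.73, -2.70 and -2.97 in P15 and at -2.61, -2.79, -2.42 and -2.45 in P18. Its changes were -0.02 in P15 (-0.30 to 0.27, adjusted p = 0.986) and 0.15 in P18 (-0.14 to 0.43, adjusted p = 0.437) against NP15.

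The intervals on both RXRA probes leave out a change of 2-fold in either direction. The row 100 probe passed for P18 with cyclic loess, at 0.43 against NP15 (adjusted p = 0.0242) and 0.40 against P15 (0.0354), and with quantile normalization, at 0.34 (0.0495) and 0.35 (0.0426). Between the 2 RXRA probes the change differed by -0.23 in P15 vs NP15, -0.30 in P18 vs NP15 and -0.06 in P18 vs P15, with exact permutation p = 0.200, 0.171 and 0.743. Adjusted over the 4 tests these were 0.267, 0.267 and 0.743. After subtraction of the local row median the first was -0.35 (exact permutation p = 0.0286, adjusted 0.0571).

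**Figure D2:**
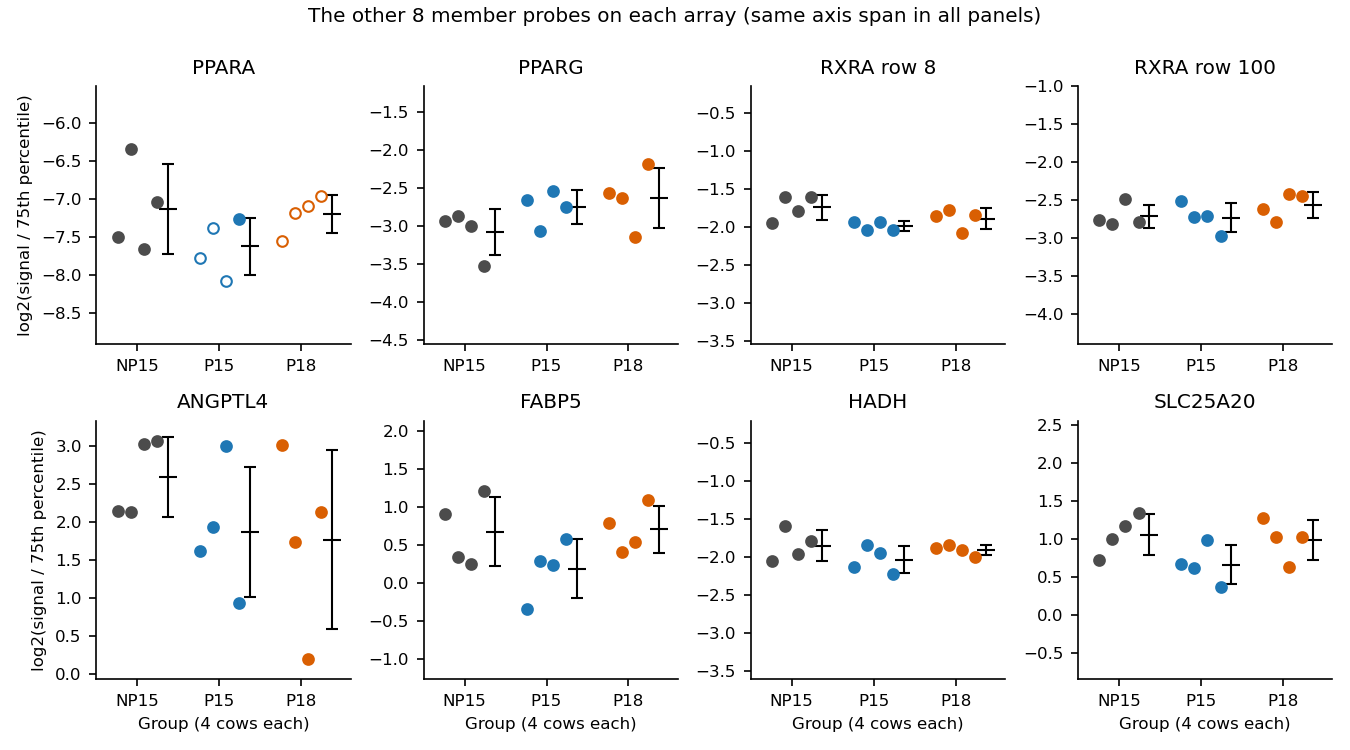
Level of the other 8 member probes on each array, as log2 of signal over the 75th percentile of the array; filled points are well above background, open points are not, and black marks show mean ± SD (n = 4). All panels span the same number of log2 units; the groups overlap in every panel, and the ANGPTL4 arrays are the most widely spread in P15 and P18 (SD 0.86 and 1.18).

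Of the lipid genes, ANGPTL4 varied most among cows. Its values were 2.15, 2.13, 3.02 and 3.07 in NP15, 1.62, 1.94, 2.998 and 0.94 in P15 and 3.02, 1.74, 0.20 and 2.13 in P18. In P15, 3 of 4 arrays lay below all NP15 arrays, in P18 2 lay below and 1 was level with the lowest of them, and in each group 1 array reached about the NP15 maximum. The means fell short of a call, with changes of -0.72 in P15 (95% interval -1.98 to 0.54, adjusted p = 0.796) and -0.82 in P18 (-2.08 to 0.44, adjusted p = 0.310). P18 and P15 differed by -0.10 (-1.36 to 1.16, adjusted p = 0.918), which became 0.42 without P18 replicate 3 and 0.27 without P15 replicate 3.

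FABP5, the carrier that passes fatty acids to PPARD, was at 0.90, 0.35, 0.25 and 1.21 in NP15, at -0.34, 0.29, 0.24 and 0.58 in P15 and at 0.79, 0.41, 0.54 and 1.101 in P18. P15 had the lowest array, and the groups overlapped. The change was -0.49 from NP15 to P15 (95% interval -1.05 to 0.08, adjusted p = 0.657) and 0.03 from NP15 to P18 (-0.54 to 0.60, adjusted p = 0.945). P18 lay 0.52 above P15 (-0.05 to 1.08, adjusted p = 0.160), without passing.

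SLC25A20, the carnitine-acylcarnitine carrier, was at 0.72, 1.00, 1.17 and 1.34 in NP15, at 0.67, 0.62, 0.99 and 0.37 in P15 and at 1.27, 1.03, 0.64 and 1.02 in P18. In P15, 3 of 4 arrays lay below all NP15 arrays. The change was -0.40 (95% interval -0.80 to -0.001, adjusted p = 0.566). This probe lies in row 187, where 329 probes within 2 rows had a median change of -0.30 in that comparison, and after subtraction of the local row median its change was -0.09. P18 differed from NP15 by -0.07 (adjusted p = 0.808) and from P15 by 0.33 (adjusted p = 0.201).

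HADH was the most even of the lipid genes, with values of -2.05, -1.59, -1.96 and -1.79 in NP15, -2.13, -1.84, -1.94 and -2.22 in P15 and -1.88, -1.84, -1.91 and -2.003 in P18. Its SD was 0.21, 0.18 and 0.07 in these groups (n = 4 each). The changes were -0.19 in P15 (95% interval -0.46 to 0.09, adjusted p = 0.769), -0.06 in P18 (-0.33 to 0.22, adjusted p = 0.760) and 0.13 from P15 to P18 (-0.15 to 0.40, adjusted p = 0.487). The P18 difference from NP15 turned to 0.09 with quantile normalization, 0.12 with median centring and 0.17 with cyclic loess. All of these stay well under a 2-fold change.

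**Figure D3:**
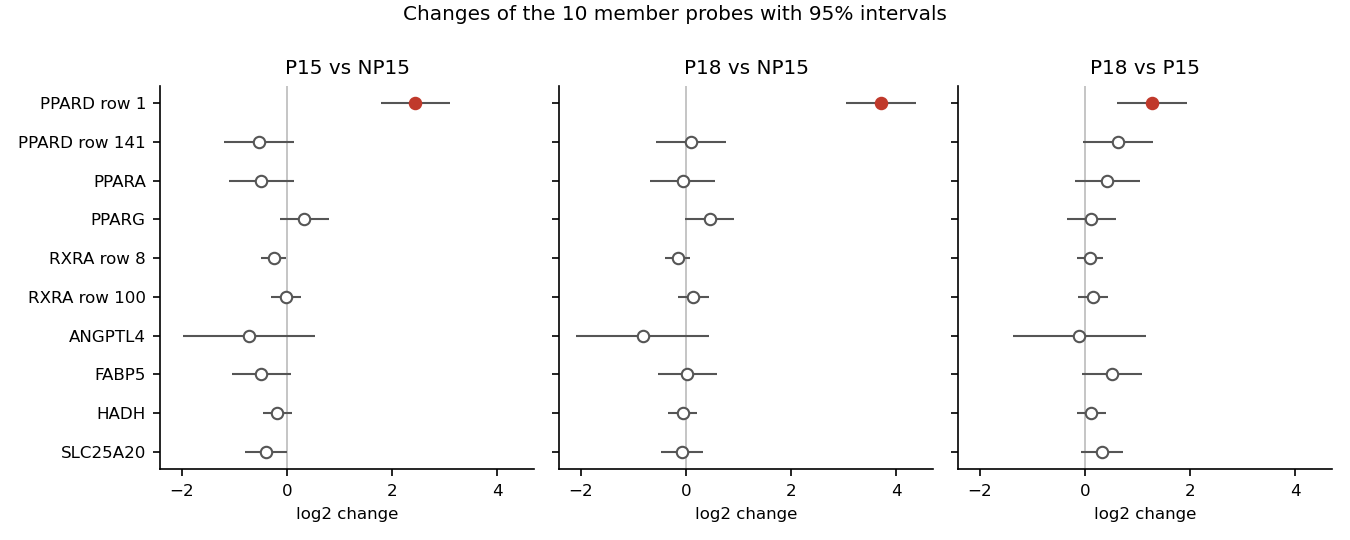
Log2 change of the 10 member probes in the 3 comparisons (first group minus second), with 95% intervals from limma; filled points passed an adjusted p of 0.05 over all probes tested and open points did not. The PPARD row 1 probe passed in all 3 comparisons (2.44, 3.71 and 1.27), and the intervals of the other 9 probes that passed in none lie between -2.08 and 1.29.

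Over the 10 probes the median change was -0.32 from NP15 to P15, with 2 above 0 and 8 below, -0.01 from NP15 to P18, with 5 on each side, and 0.25 from P15 to P18, with 9 above 0 and 1 below. Over all probes tested the medians were -0.06, -0.06 and -0.03, and 40.1%, 45.6% and 47.8% of probes were above 0. The member counts and medians with P18 include PPARA and PPARD row 141, which were well above background on 0 P18 arrays. Their P18 values bound the level from above only, so the direction of their changes to P18 is not settled. From P15 to P18 both were counted above 0 (0.43 and 0.63). The adjusted p of the 9 probes not called ran from 0.535 to 0.986, from 0.137 to 0.945 and from 0.144 to 0.918. The comparisons share their groups, so the 3 sets of values are not independent.

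**Figure D4:**
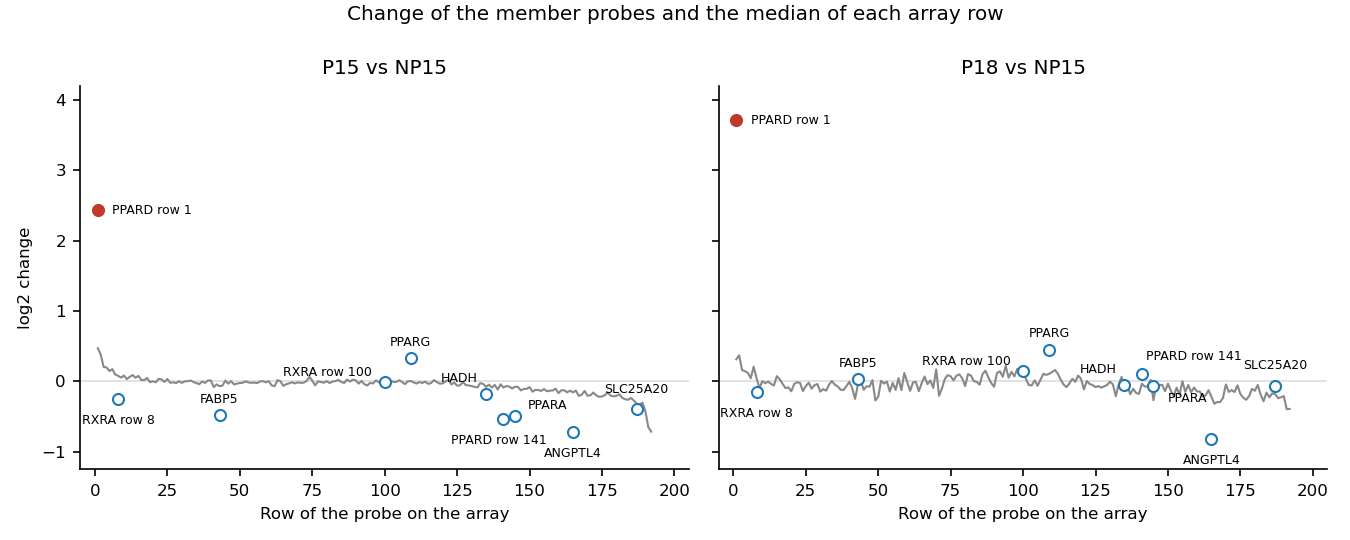
Log2 change of each member probe against its row on the array, for P15 vs NP15 and P18 vs NP15, with the grey line showing the median change of all tested probes in each row; the filled point passed the test. The line rises above 0 in the first rows and falls below 0 in the last rows, and the PPARD row 1 probe (2.44 and 3.71) lies far above it.

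The members were compared with each other and with all named genes over the 12 arrays, as a description of arrays that share groups, slides and scaling. The closest pairs of members were ANGPTL4 with SLC25A20 (Pearson r = 0.796), RXRA row 8 with SLC25A20 (0.779) and FABP5 with PPARD row 141 (0.698). The 2 RXRA probes correlated at -0.173. Of 6175 probes of other named genes, those most like PPARD row 1 were CIAO1, an iron-sulfur cluster assembly factor (r = 0.967, row 8), COX17, a copper chaperone of cytochrome oxidase (0.966, row 2), and CPNE6, a copine (0.953, row 4). All 3 lie in the first 8 rows of the array, as the PPARD probe does. Those most like PPARD row 141 were ARRB2, HAVCR2 and RGS20 (0.870 to 0.898), in rows 180, 71 and 116. PPARG was followed most closely by TTYH1, CSNK1A1 and C1R (0.850 to 0.891), PPARA by genes that include MDH2 and COMMD4 (each at 0.808 or more), and RXRA row 8 by FASTK, ENY2 and OSBPL2 (0.901 to 0.908). The closest to RXRA row 100 were POU2F1, RNF186 and PRICKLE1 (0.828 to 0.865). SLC25A34, a mitochondrial carrier, was first for both ANGPTL4 (0.869) and SLC25A20 (0.881), DERA for FABP5 (0.909) and PRPF19 for HADH (0.880).

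Other genes of the pathway were taken from a list of 170 genes in 7 roles, of which 96 were on the array and 88, with 90 probes, were tested. Between P15 and NP15, 0 of 90 probes passed limma's test. The nearest was SCP2, a sterol and fatty acid carrier of peroxisomes, at 0.93 (adjusted p = 0.0503, row 4), which passed with cyclic loess and with array weights. Between P18 and NP15, 10 rose and 10 fell, which is 22.2% of the list against 29.9% of all probes, and between P18 and P15, 12 rose and 8 fell, again 22.2% against 29.0%. Of all probes, 11.2% rose and 18.7% fell in the first of these comparisons and 13.5% rose and 15.6% fell in the second. Without NP15 replicate 1 or 3 or P18 replicate 1 or 3, 6 rose between P18 and NP15 in place of 10. With median centring 17 rose and 7 fell in that comparison. Over all 12605 probes, 2311 then rose and 1521 fell, in place of 1410 and 2363. The list's median change was 0.04 and 0.05 in the comparisons of P18 with NP15 and P15, and -0.09 between P15 and NP15.

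Among 7 tested receptor partners and related receptors, 2 were called in each comparison with P18, 28.6% against 29.9% and 29.0% of all probes. In each, 0 rose and 2 fell. They were the retinoic acid receptors RARG, 2.40-fold lower than in NP15 (log2 change -1.26, SE 0.23, adjusted p = 0.00203) and 2.72-fold lower than in P15 (adjusted p = 0.000972), and RARA, 1.66-fold lower (-0.73, SE 0.15, adjusted p = 0.00382) and 1.54-fold lower (0.00970). The oxysterol receptor NR1H2 was at 0.00 against NP15 (adjusted p = 1.0). Of 6 coactivators and corepressors, 1 rose and 1 fell in each comparison with P18, 33.3% against 29.9% and 29.0% of all probes. NCOA4, a nuclear receptor coactivator that also carries ferritin to lysosomes, rose 1.44-fold against NP15 (adjusted p = 0.0126) and 1.56-fold against P15 (0.00458). HDAC3, the deacetylase of the NCOR complexes, fell 1.80-fold against NP15 (adjusted p = 0.00186). Its fall against P15 (-0.51, adjusted p = 0.0262) was lost with quantile normalization, median centring, cyclic loess or normexp, and without P15 replicate 2 or P18 replicate 1, 2 or 3 (adjusted p up to 0.0776).

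Of 19 probes for fatty acid uptake, binding and activation, 1 rose and 1 fell against NP15, which is 10.5% against 29.9% of all probes. FABP3, the heart-type carrier, fell 2.17-fold (-1.12, SE 0.29, adjusted p = 0.0132), from a mean of 4.54 ± 0.66 (SD, n = 4) in NP15 to 3.42 ± 0.32 in P18. Against P15, 2 rose and 1 fell, which is 15.8% against 29.0% of all probes. FABP2, the intestinal-type carrier, was 7.85-fold higher in P18 than in P15 (2.97, SE 0.94, adjusted p = 0.0344), with wide spread (SD 1.41 and 1.69, n = 4) and 3 of 4 P15 arrays well above background. With normexp the change was 1.60, still called. The call was lost without P15 replicate 1 (2.16) or 4 or P18 replicate 2 or 4, with adjusted p up to 0.0910. FABP4, the fat cell carrier, was at 0.99 in P18 vs NP15 (adjusted p = 0.220).

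Mitochondrial fatty acid oxidation gave 22 tested probes, 2 higher and 1 lower in P18 than in NP15, and 2 higher and 0 lower than in P15. The shares called were 13.6% and 9.09%, against 29.9% and 29.0% of all probes. ACAA2, the thiolase of the last step of beta-oxidation, rose 1.62-fold against NP15 (0.69, SE 0.09, adjusted p = 0.000307) and 1.72-fold against P15 (0.78, adjusted p = 0.000175). HADHB, the thiolase subunit of the trifunctional protein, rose 1.51-fold against P15 (adjusted p = 0.0130). ECHS1, the short-chain enoyl-CoA hydratase that acts just before HADH, fell 1.52-fold against NP15 (-0.60, adjusted p = 0.0127), a call lost with median centring (-0.43, adjusted p = 0.0527).

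In peroxisomal and microsomal oxidation 1 of 10 probes rose and 2 fell between P18 and NP15, and 0 were called between P18 and P15, where SCP2 was at 0.14 (adjusted p = 0.629). The shares called were 30.0% and 0%, against 29.9% and 29.0% of all probes. SCP2 rose 2.11-fold (1.08, SE 0.19, adjusted p = 0.00185).

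Of 16 probes for lipid storage, lipolysis and synthesis, 4 rose and 2 fell against NP15, which is 37.5% against 29.9% of all probes, and 5 rose and 3 fell against P15, which is 50% against 29.0%. ACACA, which makes malonyl-CoA, fell 2.51-fold against NP15 (-1.33, SE 0.16, adjusted p = 0.000158) and 2.48-fold against P15. FASN, which builds fatty acids from malonyl-CoA, was at 0.40 (adjusted p = 0.0199) and 0.43 (0.0149), in the other direction. The related ACACB, which also makes malonyl-CoA, was at 0.40 (adjusted p = 0.116) and 0.53 (0.0432), called higher only against P15. ABHD5, the activator of the triglyceride lipase PNPLA2, fell 1.82-fold against NP15 (adjusted p = 0.00113), while PNPLA2 itself rose 1.41-fold against P15 (0.50, SE 0.10, adjusted p = 0.00373). PLIN2, a coat protein of lipid droplets, was at -0.64 against NP15 (adjusted p = 0.342).

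Of 11 probes of other target genes, 1 rose and 1 fell against NP15, and 2 rose and 1 fell against P15. The shares called were 18.2% and 27.3%, against 29.9% and 29.0% of all probes. VEGFA, the endothelial growth factor, fell 2.13-fold against NP15 (-1.09, SE 0.26, adjusted p = 0.00860) and 2.01-fold against P15 on its row 36 probe, and on its row 163 probe it was at -0.69 (adjusted p = 0.0732) and -0.50 (0.190). Of the endothelial markers, 4 of 10 probes were called lower in P18 in both comparisons, against 18.7% and 15.6% of all probes, and their sums overlapped between P18 and NP15. The sums were between 6.78 and 10.3 in NP15, between 8.93 and 10.99 in P15 and between 6.84 and 8.22 in P18. The part of those cells in the VEGFA values was not tested. The cholesterol exporter ABCA1 rose by 1.12 against NP15 (adjusted p = 0.0244).

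**Figure D5:**
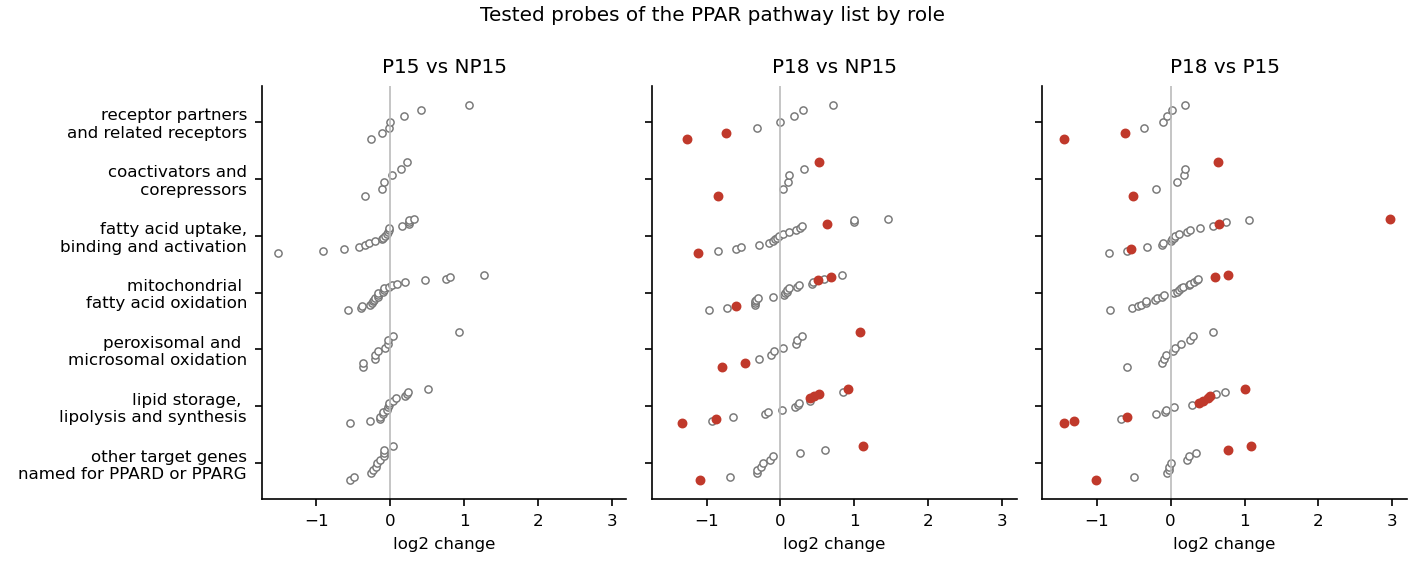
Log2 change of the tested probes of the pathway list in the 3 comparisons, one band per role and one point per probe, spread vertically by rank; filled points passed an adjusted p of 0.05 over all probes tested and open points did not. The left panel has 0 filled points, the middle panel 10 above 0 and 10 below, and the right panel 12 above and 8 below.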

How the data were processed

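Spot intensity values of 12 1-colour Agilent arrays (Cy3) were deposited by the authors, read with Agilent Feature Extraction 9.5 according to the submitters' processing notes and 9.5.1.1 according to the files; per the file headers, the processed signal is already corrected for background. The deposited value table holds log2 values that equal, up to 1.79e-06, the log2 processed signal shifted by 1 constant per array (column medians -3.32 to -2.99), so scale and direction are known. Here each array's 75th percentile was subtracted from its log2 processed signals. Spots marked as outliers were left out, at most 9 on an array.

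A probe was tested if any group had it well above background on 3 or more of its 4 arrays; 12605 of 15208 probes met this, among them all 10 member probes. Groups were compared probe by probe with limma 3.58.1 in R 4.3.3, in 1 fit of all 12 arrays, with two-sided p-values, Benjamini-Hochberg adjustment over the 12605 probes and a threshold of 0.05. Each sample is a separate cow, and the number of arrays limits the precision. Pairs of probes of 1 gene were compared with exact permutation tests. Intervals are limma's, at 95%.

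Gene names came from the files' accessions, gene numbers, symbols or descriptions, looked up in a bovine gene table (ARS-UCD2.0), which served for names alone; 7050 probes had a symbol. The files name no genome build, so no positions are given. Every member probe is named, and from each role of the pathway list the 2 called probes with the smallest p whose groups did not overlap. Some genes that these rules name are not reported here. Other list members were named after their values were seen: SCP2 in P15, NR1H2, FABP4, FASN, ACACB, PLIN2, ABCA1 and the second VEGFA probe. So were the markers HSD3B1, STAR, C1QB and C1QA. The members, lists and tests were chosen with earlier results of these data known. The limma fit was tested on simulated data. Alternatives covered scaling, background correction, filters, probe summary, array position, array weights, a replicate block and each array left out.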

Additional observations from a re-analysis of the deposited data

Results flagged for a closer look

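For each of the 10 member probes in each of the 3 groups, the most extreme array was set against the others of its group of 4. In 1 of 30 such groups its gap to the nearest array, divided by the whole range, passed Dixon's 95% critical value for 4 samples. It was the RXRA probe in row 100 in NP15, where replicate 3 was at -2.49 and the other arrays were between -2.82 and -2.76, a gap of 0.834 of the range. Chance alone flags about 1 in 20 groups. Without that array the change of this probe was 0.06 from NP15 to P15, with an adjusted p above the threshold, in place of -0.02.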

How the results depend on the processing

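The rise on the PPARD row 1 probe passed the test under every alternative in which the probe itself was tested, with changes from 1.03 to 2.63 between P15 and NP15, 1.97 to 3.98 between P18 and NP15 and 0.94 to 1.46 between P18 and P15, the lowest of each with normexp. Without 1 array at a time the ranges were 2.27 to 2.72, 3.47 to 4.00 and 1.03 to 1.38, all called. The P15 call was lost (0.95, adjusted p = 0.157) when both PPARD probes were averaged. Without the outer 24 rows at each edge, the PPARD row 1 probe is left out. Of the 7 member probes in the middle rows, 0 passed in any of the 3 comparisons. Of all 9469 probes there, limma called 0 between P15 and NP15, with 409 at an unadjusted p under 0.05. It called 2638 of them between P18 and NP15 and 2613 between P18 and P15.

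Between P15 and NP15, 123 probes were called, 65 on the 8 arrays compared alone, 76 with normexp, 40 after the row position adjustment, 223 with array weights and 67 to 121 without 1 array at a time, the lowest without NP15 replicate 1 or 2. Of the pathway list, 0 probes were called there and 1, SCP2, with cyclic loess, array weights, the brightest probe per gene, probes well above background on all 12 arrays, or without P15 replicate 1 (0 to 1 without 1 array at a time). Averaging both PPARD probes left 0 member genes called. Between P18 and NP15, 1 member probe was called, 3 with quantile normalization or cyclic loess, 2 with median centring and 1 to 2 without 1 array at a time. The list had 10 probes higher, 17 with median centring and 6 to 10 without 1 array at a time. Of all 12605 probes, 3773 were called in that comparison, 3892 with quantile normalization, 3971 with cyclic loess and 3832 with median centring. Those called higher were 1410, and 2311 with median centring. Between P18 and P15, 1 member probe was called, 2 with quantile normalization, cyclic loess, normexp or array weights, and 3659 probes in all, 5506 with no filter on dim probes. All probes called there were 3722 with quantile normalization, 3811 with cyclic loess, 3312 with normexp and 4571 with array weights. Higher probes were 37.4% of the calls between P18 and NP15, 60.3% with median centring and 49.1% after the row position adjustment, 46.4% between P18 and P15 and 65.9% with median centring, and 40.7% between P15 and NP15 and 67.5% after the row position adjustment. Causes of these shifts were not tested.

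Changes near 0 that were not called turned sign, none of them passing the test. Between P18 and NP15, quantile normalization gave -0.014 for FABP5, 0.093 for HADH and -0.18 for PPARD row 141; median centring 0.12 for HADH, 0.11 for PPARA, 0.024 for RXRA row 8 and 0.11 for SLC25A20; cyclic loess 0.17 for HADH, -0.37 for PPARD row 141 and 0.067 for RXRA row 8; row position adjustment 0.033 for HADH, 0.069 for PPARA and 0.13 for SLC25A20; array weights 0.031 for PPARA and 0.028 for SLC25A20; and normexp 0.33 for PPARA. Between P18 and P15, median centring gave 0.056 for ANGPTL4, quantile normalization -0.028 and cyclic loess -0.23 for PPARA, and row position adjustment 0.005 for the difference between the RXRA probes. Between P15 and NP15, RXRA row 100 was at 0.00046 with median centring, 0.033 with cyclic loess and 0.0028 with the row position adjustment. Without 1 array at a time the ranges between P18 and NP15 were -0.11 to 0.21 for FABP5, -0.13 to 0.028 for HADH, -0.24 to 0.20 for PPARA, -0.14 to 0.38 for PPARD row 141 and -0.18 to 0.050 for SLC25A20, between P18 and P15 -0.52 to 0.42 for ANGPTL4 and -0.028 to 0.29 for PPARG, and between P15 and NP15 -0.088 to 0.064 for RXRA row 100.

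Samples of the groups share replicate numbers, but same-numbered arrays deviated together only weakly (r from -0.040 to 0.293), so the numbers were not taken as pairs. With the replicate number as a block, 75 probes were called between P15 and NP15, and 2 member probes between P18 and P15, PPARD row 141 (0.63, adjusted p = 0.0436) besides PPARD row 1. The values of PPARA and PPARD row 141 lay near or below the lowest signal well above background, which on the log2 scale lay between -8.09 and -7.34 on NP15 arrays, between -7.56 and -6.74 on P15 arrays and between -6.08 and -5.36 on P18 arrays.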
